A study of Mus musculus with 28 samples.

Results

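Single neurons grown from mouse cortex were sampled in 2 ways, and the RNA of each was sequenced: 4 libraries came from TIVA capture and 4 from collection with a pipette. These 8 libraries, of 28 in the series, were chosen by their source names, and all 28661 features of the count tables were used. In TIVA, short for transcriptome in vivo analysis, a caged tag enters living cells, laser light opens it in a chosen cell, and the opened tag hybridises to the poly(A) tails of that cell's RNA so that they can be pulled out. A pipette draws in the cell body itself, with whatever RNA it holds. Messenger RNA from 1 cell is too scarce to be sequenced directly, so it is copied first. Linear amplification does this by repeated transcription from a promoter added to the cDNA, and RNA that is rare or lost at capture may leave no copy.

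All 8 neurons were from C57BL/6 mice and had been cultured on coverslips for 7 to 9 days, per the labels' protocols. The pipette group had no treatment. The TIVA group had been rinsed, loaded with 10 µM tag for 15 min and lit at 405 nm at 30% laser power. For the TIVA group, the protocol text has the imaged field around the lit cell aspirated together with it. Both groups then had 3 rounds of amplification by in vitro transcription, with polyA RNA as the labelled molecule. Cultured hippocampal neurons by TIVA (4 libraries) and by pipette (3 libraries), handled in the same 2 ways, and bulk hippocampus from slices of mice aged 8 to 10 days (3 libraries) served as outside references. The series design names collection by pipette and by TIVA, so the comparison asks how the transcriptome of a cortical neuron differs between them.

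Every library stands for a single cell, with no animal or culture given in its labels. Cells are not replicates, so each group counts as 1 sample, no test between the groups was run, and differences are given beside the spread over cells. A date or sequencing batch is not given, so a batch and the means of collection cannot be told apart. The features are UCSC known-gene identifiers, which the files do not pair with symbols, and no table used here pairs them either. The neuronal and glial markers of these cells could therefore not be checked, and the features are described by identifier, level and behaviour.

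TIVA libraries held 12.2, 9.77, 15.5 and 10.4 M (mega) reads assigned to features, and pipette libraries 13.2, 25.7, 11.2 and 11.5 M. A count of 0 allows up to 3 reads, worth 0.117 to 0.307 CPM (counts per 1 M assigned reads). Reads outside any feature made up 43.4% to 67.5% of counted reads by TIVA and 46.7% to 81.1% by pipette. Ambiguous reads made up 2.94% to 7.61% by TIVA and 0.589% to 2.02% by pipette, with no overlap, and the part of this gap in the differences that follow was not tested. No pair of libraries within a group agreed within sampling noise.

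A set of 376 features was higher by TIVA and a set of 356 higher by pipette, each by at least 2-fold, whichever of 4 scalings was used. All 4 libraries of the higher group had to lie above all 4 of the other, and fold was taken as the difference of mean log2(CPM + 10), which understates the change of low features. These sets were 3.38% and 3.20% of the 11119 features tested, those averaging at least 5 CPM over the 8 libraries, out of all 28661. At 4-fold they held 89 features (0.800%) and 77 features (0.693%). With the second pipette library left out, they grew to 740 and 589 at 2-fold, and to 181 and 149 at 4-fold. With fewer libraries the condition of no overlap is easier to meet. The 2-fold TIVA set also grew to 569 without the fourth pipette library, and the pipette sets to 576 and 126 without the third.

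The balance between the directions depended on the scaling. By assigned reads 397 features were higher by TIVA (3.57%) and 698 by pipette (6.28%), so TIVA held 36.3% of the calls. The share was 40.1% with TMM and 47.1% with DESeq2 size factors. It was 71.8%, or 911 against 358 features, when each library was scaled to the reads left after removal of its top 50 features. The median difference over all tested features moved in step, from -0.17 by assigned reads to -0.14, -0.08 and 0.20. Relative to that median, by assigned reads, 589 features were higher by TIVA and 512 by pipette. At 4-fold, by assigned reads, 92 were higher by TIVA (0.827%) and 159 by pipette (1.43%). With a pseudocount of 1 in place of 10 CPM these 4-fold counts were 430 and 343, so their order turned with the pseudocount. At 2-fold that pseudocount gave 497 higher by TIVA and 755 by pipette, the same order as with 10 CPM.

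The sets lay at different levels. Of the 4333 tested features with a mean over the 8 libraries below 20 CPM, 218 were in the TIVA set and 27 in the pipette set. Of the 3056 at 20 to 50 CPM the sets held 78 and 79, and of the 2941 at 50 to 200 CPM 54 and 170. The near balance of the full sets thus joined unlike bands: with a mean of at least 20 CPM required, 158 features were higher by TIVA and 329 by pipette under all 4 scalings. It also reflects the rule, since neither full set could exceed its lowest count by any scaling, 397 by TIVA and 358 by pipette. The median TIVA feature had a group mean of 28.6 CPM by TIVA and 2.37 CPM by pipette. The median pipette feature had a group mean of 148 CPM by pipette and 24.7 CPM by TIVA. These levels follow in part from the rule that chose the sets and from the filter on the mean.

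**Figure D1:**
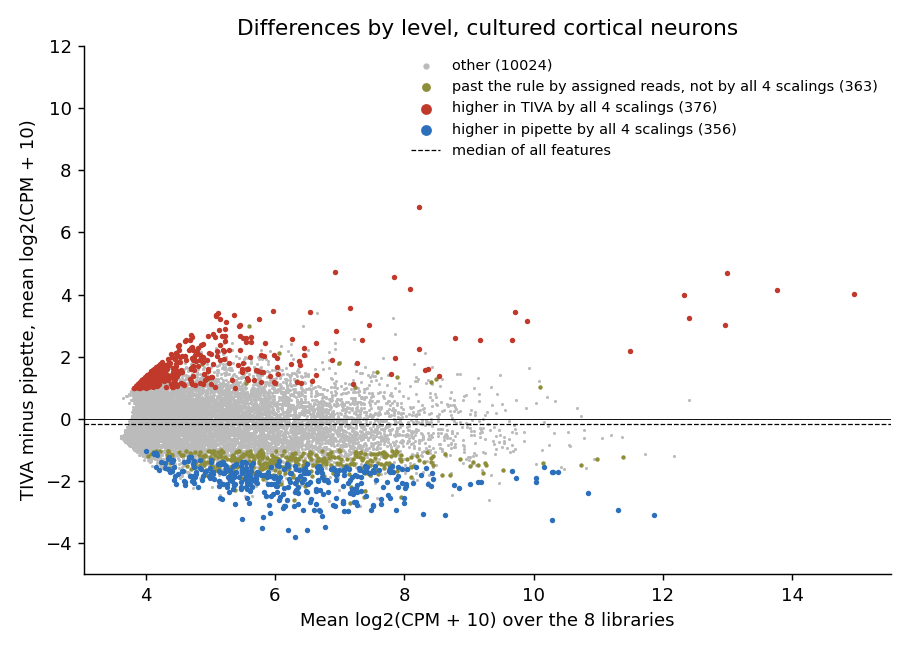
Difference between TIVA and pipette (mean log2(CPM + 10), y axis) against the mean level over the 8 libraries (x axis, same unit), with 1 point per tested feature. Red and blue points are the 376 and 356 features past the 2-fold rule under all 4 scalings, olive points passed it by assigned reads but not under all 4 scalings, and the dashed line marks the median of -0.17. The blue points reach further into the middle of the range, and a few abundant red points stand at the far right.

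The feature with the largest excess by TIVA was uc007fct.1. It stood at 1872, 2825, 6629 and 2883 CPM in the TIVA libraries and at 2.66, 326, 3.47 and 1.04 CPM in the pipette libraries. It ranked between 7 and 16 in abundance in each TIVA library, and between 8002 and 11118 in 3 pipette libraries. The second pipette neuron alone contained it in quantity, at rank 540, and still held less than any TIVA library. The difference was 6.82 on the log2(CPM + 10) scale (SD over cells 0.76 by TIVA and 2.39 by pipette). Without that neuron it was 8.01. Group means of 3552 and 83.4 CPM differed 42.6-fold, and summed reads gave 3823 CPM (95% Poisson interval 3806 to 3841) and 138 CPM (135 to 140). Such intervals cover counting error only.

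Next in order came uc007ezl.1, at 386, 653, 1163 and 486 CPM by TIVA and 3.19, 0.350, 5.88 and 136 CPM by pipette. As with the previous feature, a single pipette neuron held most of the reads, here the fourth and not the second. The 2 features were thus high in different pipette cells. That both were high in all TIVA libraries follows from the rule that chose them. The difference was 4.72 on the log2 scale, or 5.59 without the fourth pipette library, and the means of 672 and 36.4 CPM differed 18.5-fold. Summed reads gave 714 CPM (706 to 721) and 27.4 CPM (26.1 to 28.7).

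In the other direction the leading feature joined 6 identifiers, uc008bsu.1:uc008bst.1:uc008bsw.1:uc008bsv.1:uc008bss.1:uc008bsr.1. Its level was 307, 215, 170 and 590 CPM by pipette and 9.24, 16.6, 11.6 and 8.78 CPM by TIVA. The TIVA libraries lay close together and all held it at a low level, from 91 to 180 reads. The difference was -3.79 on the log2 scale, and -3.46 without the fourth pipette library. Means of 321 and 11.6 CPM differed 27.7-fold, and summed reads gave 297 CPM (292 to 301) and 11.4 CPM (10.5 to 12.4).

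The feature uc009pfg.1 followed, at 1091, 77.1, 73.1 and 522 CPM by pipette and 8.99, 15.5, 13.2 and 8.30 CPM by TIVA. Pipette neurons spread widely here (SD 482 CPM around a mean of 441), and the first and the fourth were high. TIVA libraries varied little (SD 3.42 CPM around 11.5). The difference was -3.58 on the log2 scale, -2.88 without the first pipette library and -4.12 without the third. Summed reads gave 376 CPM (371 to 381) and 11.5 CPM (10.6 to 12.5).

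Outside the cortical libraries the 4 features did not all keep this order. Hippocampal neurons showed uc007fct.1 at 662 to 2004 CPM by TIVA and 35.0 to 50.5 CPM by pipette, with no overlap, and bulk hippocampus at 1980 to 10252 CPM. The level of uc007ezl.1 overlapped between hippocampal TIVA neurons (84.6 to 477 CPM) and pipette neurons (118 to 312 CPM), and bulk tissue held 396 to 655 CPM. The feature led by uc008bsu.1 was lower by TIVA in hippocampus as well, at 61.9 to 90.6 against 160 to 179 CPM, a difference of -0.98 on the log2 scale. For uc009pfg.1 these ranges were 13.3 to 53.2 and 94.1 to 259 CPM, a difference of -2.29. Bulk tissue held the first of these at 95.6 to 203 CPM and the second at 7.64 to 68.4 CPM.

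**Figure D2:**
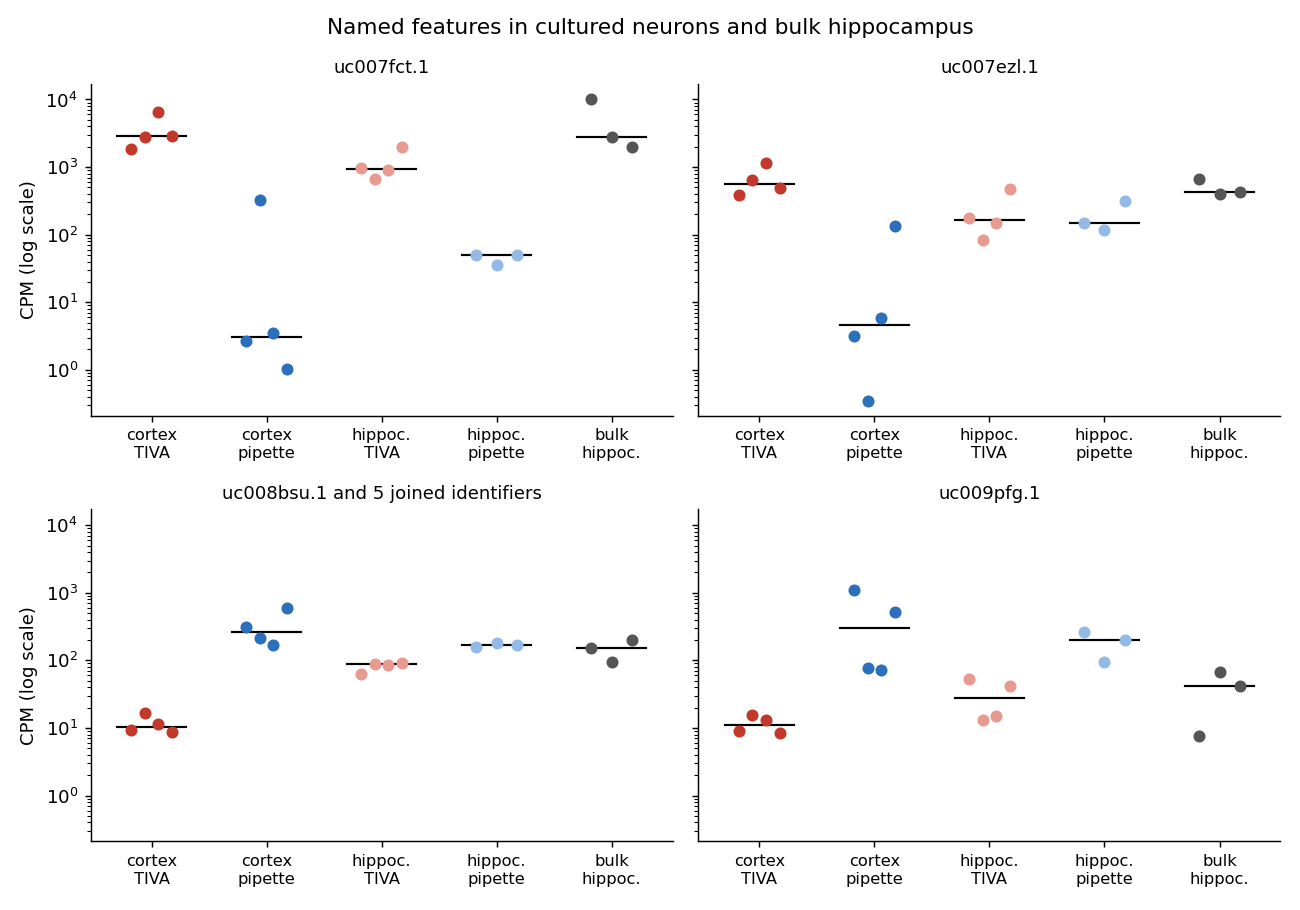
CPM on a log scale of the 4 named features in every library of cultured cortical neurons, cultured hippocampal neurons and bulk hippocampus; each point is 1 library and each bar a group median. In the upper panels 3 of the 4 cortical pipette neurons lie below 6 CPM, and in the lower panels all cortical TIVA libraries lie below 17 CPM.

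The hippocampal libraries share none with the cortical comparison, and both sets of features leaned the same way there. Of the 347 cortical pipette features measured in hippocampus (mean of 5 CPM or more), 337 were higher by pipette there too (97.1%), against 72.6% of the 9722 cortical features measured in both. Their median hippocampal difference was -1.43, against -0.45 over the 9722. With TMM, which brought the hippocampal median near 0 (-0.00075), 91.6% of them were higher by pipette, against 50.0%. Of 321 TIVA features, 210 (65.4%) were higher by TIVA in hippocampus, against 27.4% of the 9722, or 88.2% against 50.0% with TMM. Past the 2-fold rule with libraries apart in hippocampus were 226 of the 347 pipette features (65.1%), against a background of 18.3%. For the 321 TIVA features this count was 46 (14.3%), against 2.19%. These 2-fold counts were by assigned reads, by which the median over the 9722 features was -0.45, and not by TMM. The background was not matched for level. In cortex, by assigned reads, 1.11% of features at 5 to 20 CPM and 18.0% at 200 to 1000 CPM were past the rule by pipette. By TIVA these shares were 5.19% and 2.61%. The part of level in the hippocampal shares was not tested.

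Bulk hippocampus contained nearly all tested features, those of both sets among them. A single TIVA feature of the 376 and 3 pipette features of the 356 had a bulk mean below 1 CPM, against 449 of 11119. Members of the sets had to be higher in all 4 libraries of a group, whereas a tested feature could pass through a single cell. The median bulk level was 28.0 CPM for the TIVA set, 57.2 CPM for the pipette set and 28.2 CPM over all tested features. At 4-fold the bulk medians were 78.9 and 79.2 CPM. These features also had higher levels in the cells. The 4-fold TIVA features had a median group mean of 111 CPM by TIVA, and the 4-fold pipette features 241 CPM by pipette.

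TIVA libraries concentrated their reads in fewer features. The most abundant feature alone took 14.3%, 12.3%, 6.62% and 23.2% of the reads by TIVA and 2.32%, 3.02%, 2.96% and 1.13% by pipette. The 10 most abundant took 15.2% to 56.4% and 5.62% to 9.26%. To reach 50% of the reads, TIVA libraries needed 211, 221, 465 and 5 features, and pipette libraries 615, 678, 608 and 800. None of these ranges overlapped, and the fourth TIVA library was the most concentrated. For 90% of the reads the ranges overlapped, at 2932 to 4954 features by TIVA and 3741 to 4365 by pipette.

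Much of this concentration lay in a run of 8 features with consecutive identifiers. The run took 33.6%, 29.7%, 13.4% and 54.5% of the reads by TIVA, and 5.02%, 0.827%, 2.65% and 1.15% by pipette. All 8 were past the 2-fold rule under all 4 scalings, with log2 differences from 2.66 to 4.70, and 5 of the 10 leading TIVA features belonged to the run. Over the reads outside the run, the 50 most abundant features took 13.1% to 16.5% by TIVA and 13.6% to 17.6% by pipette, and the ranges overlapped. Further along the order was opposite: the 5000 most abundant features took 85.2% to 91.1% of these reads by TIVA and 92.5% to 95.2% by pipette. The run was set apart with earlier results of these libraries known, so its excess by TIVA is a description.

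**Figure D3:**
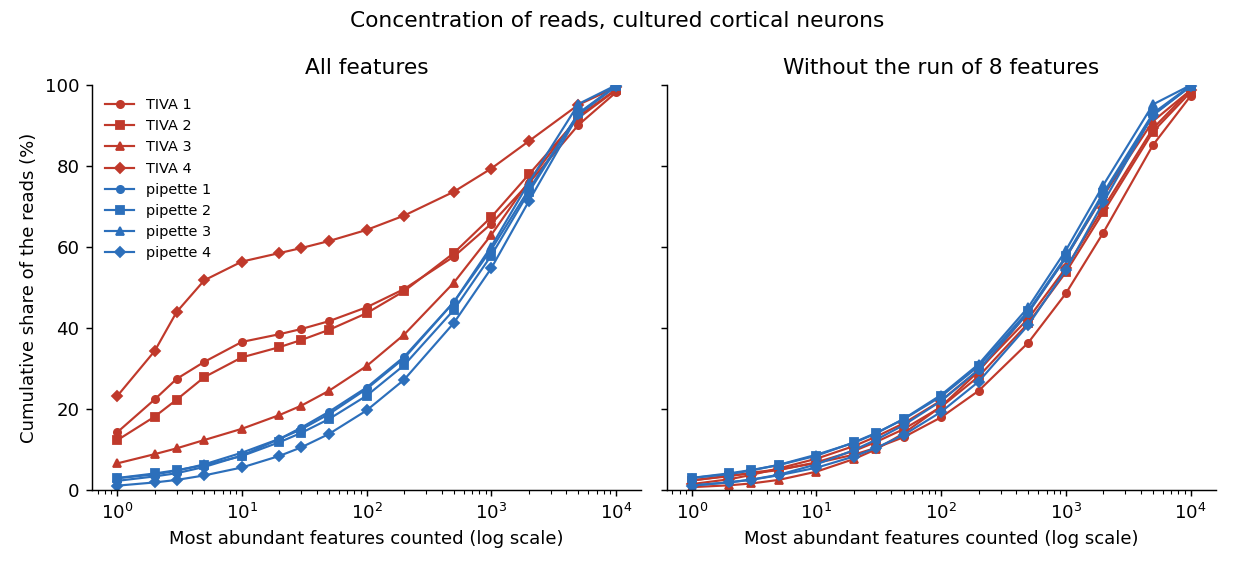
Cumulative share of the reads (%, y axis) held by the most abundant features (number on a log scale, x axis), with 1 line per library, red for TIVA and blue for pipette. With all features the red lines start between 6.62% and 23.2% and lie apart from the blue ones; without the run of 8 features the lines overlap at 50 features, and at 5000 features all 4 red lines lie below the blue ones.

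More features were detected by TIVA. At a common depth of 9.77 M reads, with 1 read or more counted as detected, TIVA libraries held 21020, 18202, 18829 and 15784 features and pipette libraries 15499, 14090, 13247 and 16401. Medians differed by 3721, and the fourth TIVA library fell inside the pipette range. With 5 reads or more required the groups did not overlap, at 13269 to 17128 against 10216 to 12885. At 10 CPM or more they overlapped again, at 6739 to 8876 against 6867 to 7806. When every library was thinned to 4.72 M reads outside the run, the ranges were also apart, at 15843 to 20514 and 12225 to 15237.

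The surplus lay at low and middle levels. TIVA libraries held 3402 to 4271 features at 1 to 5 CPM, against 1634 to 2692 by pipette. At 5 to 10 CPM the ranges were 1901 to 2125 and 800 to 1130, and at 10 to 50 CPM 4484 to 5695 and 2933 to 3944. Above this the order was opposite: at 50 to 200 CPM TIVA libraries held 1706 to 2660 features and pipette libraries 2822 to 3122, and at 200 to 1000 CPM 291 to 790 against 920 to 1050. At 1000 CPM or more the groups overlapped, at 33 to 101 and 89 to 95 features, with the third TIVA library highest. Features at 50 CPM or more numbered 2030 to 3475 by TIVA and 3862 to 4267 by pipette. Over the reads outside the run this difference was gone, with 3818 to 4550 against 3994 to 4289, whereas at 10 CPM or more TIVA then held 8353 to 10149 and pipette 6879 to 7874. Below 1 CPM the groups overlapped, at 3518 to 5781 and 3593 to 5074 features.

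**Figure D4:**
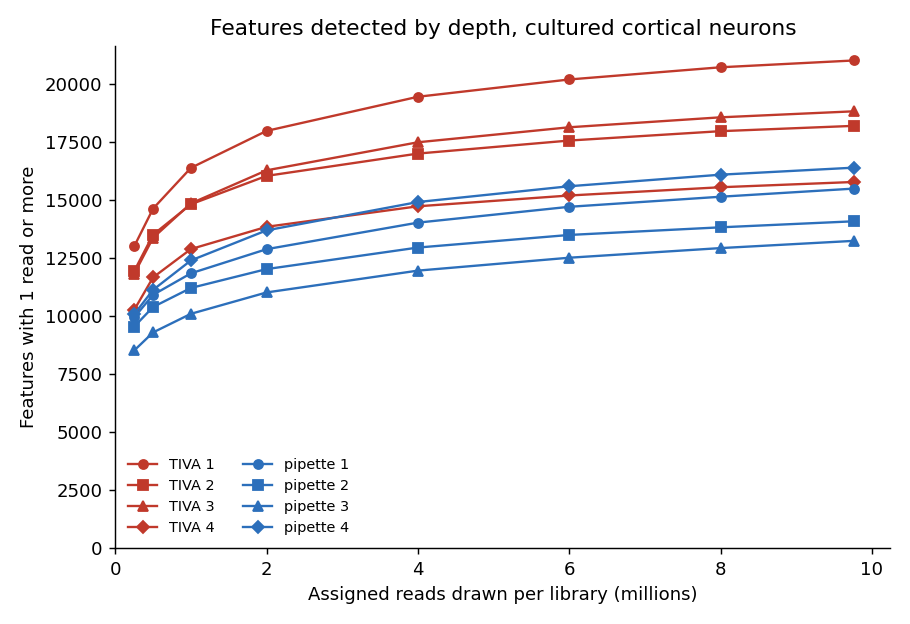
Features with 1 read or more (y axis) against the number of assigned reads drawn from each library (M, x axis), with 1 line per library, red for TIVA and blue for pipette. At 9.77 M reads 3 TIVA libraries lie at 18202 or above, and the fourth, at 15784, lies among the pipette libraries.

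Cells of the TIVA group shared more of their features. At the common depth 22731 features were found in at least 1 TIVA library and 14016 in all 4 (61.7%). For pipette neurons these numbers were 20150 and 9844 (48.9%). Of the features found in all 4 TIVA libraries, 9476 were also in all 4 pipette neurons, 4260 were in 1 to 3 of them, and 280 were in none. The 280 were scarce, with a median mean level of 1.68 CPM by TIVA and a highest of 21.5 CPM. The 4260 were low as well, with a median mean level of 3.92 CPM by TIVA. In the reverse direction 365 features were in all 4 pipette neurons and in 1 to 3 TIVA libraries, and 3 were in no TIVA library, the highest at 1.13 CPM. Features present throughout 1 group and patchy in the other were thus mostly patchy among pipette neurons. Single TIVA libraries mostly detected more features at this depth, and the part of that in the sharing was not tested.

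Abundant features also came and went among pipette neurons. At the common depth 310 features reached 50 CPM or more in a single pipette neuron and stayed below 1 CPM in the other three: 60, 38, 63 and 149 in the 4 neurons. No feature did so among TIVA libraries. These were 4.39% of the 7069 features that reached 50 CPM in any pipette neuron, whereas 4351 features reached 50 CPM in any TIVA library. In all 4 libraries of a group, 1709 features reached 50 CPM by pipette and 1712 by TIVA. A difference between cells and RNA lost at collection or amplification cannot be told apart in these data.

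The spread between cells gave the same order up to high levels. The SD of log2(CPM + 10) over 4 cells was larger by pipette for 9243 of 11119 features (83.1%). These features passed on their mean over all 8 libraries, so a feature high in a single cell alone can be among them. Of them, 43.3% were below 1 CPM in some pipette library and 11.5% in some TIVA library. The part of this filter in the share was not tested. Median SDs were 0.89 by pipette and 0.34 by TIVA at 5 to 20 CPM, 1.14 and 0.45 at 20 to 50 CPM, and 0.96 and 0.54 at 50 to 200 CPM. At 200 to 1000 CPM they were 0.71 and 0.63, and the SD was larger by pipette for 59.0% of 729 features. Among the 60 features at 1000 CPM or more the medians were 0.74 and 0.70, and the share was 48.3%. By assigned reads, the most abundant features thus had similar SDs over the cells of both groups. The run of 8 features described above took 13.4% to 54.5% of the TIVA reads, which moves the CPM of every other feature. The part of the run in these SDs was not tested.

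Pairs of TIVA libraries correlated at r = 0.836 to 0.914 over the 11119 features (Pearson's r of log2(CPM + 10), median 0.880). Pairs of pipette neurons correlated at 0.558 to 0.618 (median 0.603), and pairs across the groups at 0.537 to 0.729 (median 0.635). These values run across features, which are not independent, and each pair shares the annotation and the amplification. The features passed on their mean over all 8 libraries, so those high in a single cell alone are among them. Every TIVA library was closer to each other TIVA library than to any pipette neuron. Every pipette neuron had a higher median r with the TIVA libraries than with the other pipette neurons. The second pipette neuron had a median r of 0.722 with the TIVA libraries and 0.600 with the other pipette neurons. That neuron was also the most deeply sequenced and had the smallest share of reads outside features among pipette neurons, and the part of either in this result was not tested.

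**Figure D5:**
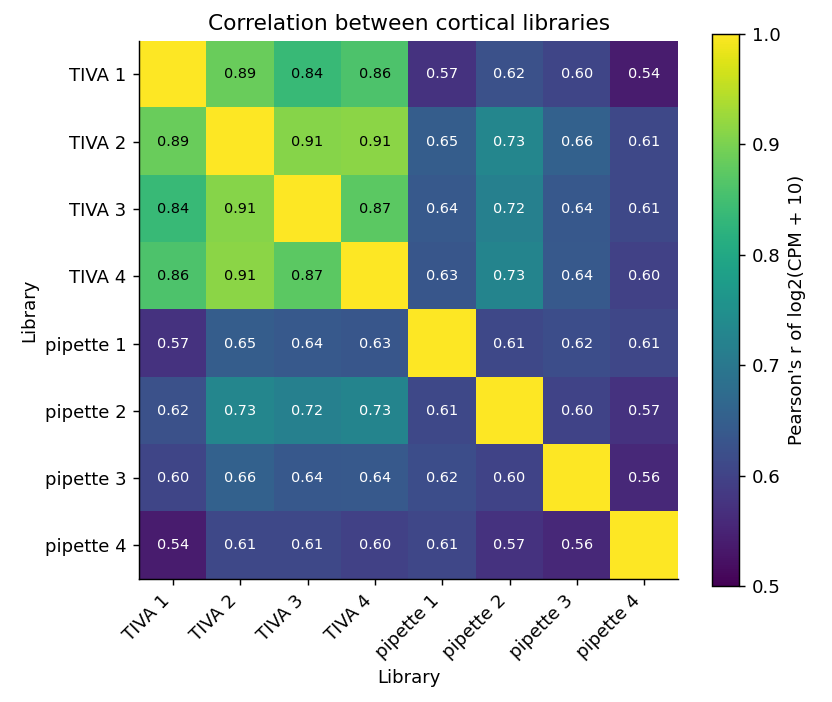
Pearson's r of log2(CPM + 10) over 11119 features for every pair of the 8 libraries (colour and printed value; library names on both axes). The block of TIVA pairs lies at 0.84 or more, and the pipette pairs at 0.56 to 0.62 are no higher than most pairs across the groups.

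A pool of pipette neurons was set beside the TIVA libraries. The 4 pipette libraries, thinned to equal depth, summed and thinned again to 9.77 M reads, held 18155 features, within the range of single TIVA libraries (15784 to 21020) and above every single pipette neuron. At 10 CPM or more the pool held 9198 features and the TIVA libraries 6739 to 8876. Its correlation with the TIVA libraries was 0.676 to 0.766 (median 0.755). Single pipette neurons gave 0.537 to 0.729, with medians of 0.602 to 0.722. A pool averages over cells, which raises such a correlation by construction, and all of these stayed below the lowest TIVA pair at 0.836. A pool also takes in the features of all its cells, which tends to raise the number detected by construction. The pool of TIVA libraries held 20849 features, and the 2 pools correlated at 0.770.

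Both groups were also set against bulk hippocampus, a tissue of another region that holds neurons and glia together. The median correlation with the bulk libraries was 0.797, 0.876, 0.916 and 0.855 for the TIVA libraries and 0.656, 0.763, 0.663 and 0.618 for the pipette neurons. Every bulk library held 2570 features at a level of at least 50 CPM, and of these 2, 3, 3 and 6 were below 1 CPM in the TIVA libraries, and 75, 26, 110 and 42 in the pipette neurons. The ranges were 0.0778% to 0.233% and 1.01% to 4.28%. By these values each TIVA library was closer to bulk tissue, and lacked fewer of its features, than any pipette neuron. The part of the choice of features in these correlations was not tested.

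The median difference was also taken by the number of isoform identifiers that a feature's name joins. Over 3587 tested features with 1 identifier the median TIVA minus pipette difference was -0.25 on the log2 scale. It was -0.16 over 4753 with 2 to 3, -0.06 over 2668 with 4 to 9, and -0.08 over 111 with 10 or more. The median over all tested features was -0.17, so these values move with the scaling, and they do not measure the size of the differences, which ran both ways in every class. Features with 1 identifier took 44.2% to 72.4% of the reads by TIVA and 35.6% to 40.2% by pipette. Outside the run of 8 these shares were 30.5% to 39.4% and 33.8% to 38.9%, and the ranges overlapped.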

How the data were processed

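The authors deposited raw read counts per feature, 1 table per library, and their submitters' processing notes name CASAVA 1.8.1, HTSeq and the genome build mm9. Neither aligner nor strand setting is stated in the labels or file headers, so overlapping or antisense features and near-identical copies are uncertain. The 5 HTSeq summary lines were left out of totals; their layout differed, joined by carriage returns in the 4 cortical pipette files, while the feature list was the same. None of 55419 single identifiers (0 matched) was found in the reference tables, so no symbol, coordinate or sequence is given.

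Counts were scaled to CPM (pandas 2.3.3, numpy 2.4.6), and TMM (edgeR 4.0.16) and DESeq2 1.42.0 size factors served as other scalings. No count model was tested. The code was tested on simulated data. Thinning drew reads at random, with a fixed seed. The features named are the first 2 in each direction by difference of mean log2(CPM + 10), among those without overlap whose higher group averaged at least 20 CPM with at least 10 reads per library. Groups, lists and rules were chosen with earlier results of these data known. The lowest chi-square per degree of freedom between libraries of a group was 88.3, so none was merged.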

Additional observations from a re-analysis of the deposited data

Results flagged for a closer look

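In 4 of 26 groups of 4 libraries examined, a single library stood far from the other three by Dixon's gap criterion, used here only to screen cells. Chance would flag about 1 in 20 at the 95% level, were the cells replicates. Among pipette neurons, the second had 25.7 M assigned reads, and the next highest had 13.2 M. The third pipette neuron had 6867 features at 10 CPM or more, below 7652 to 7806 in the others. Among pipette neurons uc007fct.1 was at 326 CPM in the second, against 1.04 to 3.47 CPM, and uc007ezl.1 at 136 CPM in the fourth, against 0.350 to 5.88 CPM.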

How the results depend on the processing

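No paired analysis was possible because replicate numbers were given in accession order and link no cells across the groups. Scaling to the reads outside the 50 most abundant features gave 911 features higher by TIVA and 358 higher by pipette at 2-fold, and 275 and 81 at 4-fold, against 397, 698, 92 and 159 by assigned reads. Scaling to the reads outside the run of 8, chosen after seeing the data, gave 939, 336, 252 and 63, and centring 103 higher by pipette at 4-fold. A pseudocount of 1 CPM gave 430 and 343 at 4-fold, which turned the order of the directions. With a mean of 20 CPM or more, which leaves fewer features, 172 were higher by TIVA and 650 by pipette at 2-fold, or 158 and 329 under all 4 scalings. Leaving out 1 library in turn gave 371 to 771 and 666 to 1034 at 2-fold and 85 to 185 and 138 to 256 at 4-fold. Under all 4 scalings it gave 365 to 740, 386 to 589, 83 to 181 and 73 to 149. By assigned reads, the counts over 1.5 times the full ones were 655 and 149 without the fourth TIVA library, 771, 185 and 256 without the second pipette library, and 601 without the fourth.

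The TIVA minus pipette difference in features detected was 379 at 10 CPM or more and 1467 over reads outside the run. At 50 CPM or more it was -812.5, and 115.5 and 116 over reads outside the 50 most abundant features and outside the run. Leaving out 1 library gave 3016.5 to 4425.5. The difference in the share of the 50 most abundant features, 22.5 percentage points, was 21.4 to 23.5 with 1 library left out and -2.22 outside the run. The pool of pipette neurons minus the TIVA median was -360.5 features, and 1107.5 at 10 CPM or more of all assigned reads. Bulk features missing differed by -2.16 percentage points below 1 CPM and -4.26 below 5 CPM.

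Median correlations within TIVA, within pipette and between them were 0.843, 0.501 and 0.517 with a mean of 20 CPM or more, and 0.849, 0.532 and 0.575 by Spearman's rho. With a pseudocount of 1 CPM the last 2 were 0.518 and 0.572. Leaving out 1 library gave 0.860 to 0.910, 0.574 to 0.609 and 0.621 to 0.639. The share of features with the larger SD by pipette was 84.6% with that pseudocount, 85.3% with TMM and 75.3% to 85.0% with 1 library left out. The cause of these shifts was not tested. The 4 named features were chosen for large differences without overlap, so leaving out a library or changing the pseudocount could not turn their direction. They kept it under the 52 alternatives run, and 49 of the resulting differences moved by less than the pooled SD over the cells of both groups. The other 3 were 4.70 for uc007fct.1 with summed counts, and 6.17 for uc007ezl.1 and -4.55 for the feature led by uc008bsu.1 with a pseudocount of 1 CPM. Features counted as absent were undetected at the common depth of 9.77 M reads, where a few reads can be missed by sampling.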
